A study of Mus musculus with 20 samples.

Results

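The chemokine mRNAs of the mouse distal colon (DC) examined here were those of 10 ligands, Cxcl9, Cxcl10, Ccl5, Ccl6, Ccl8, Ccl20, Ccl25, Ccl28, Cxcl12 and Cx3cl1. They were chosen by name, and all 10 symbols were found among the 26619 genes of the count table and passed the filter on low counts. The table came from 20 C57BL/6 mice that were weaned at 3 to 4 weeks of age, kept on the Total Western Diet (TWD) during 6 weeks and then given, over 3 more weeks, the TWD alone (0% RPS) or the TWD with 2, 5 or 10% resistant potato starch (RPS), with 5 mice per diet. The TWD is a rodent diet built to resemble the nutrient intake of the American population, and RPS, called raw potato starch in the labels, is a starch that escapes digestion in the small bowel and is fermented in the large bowel. Each mouse gave one stranded mRNA library from a piece of the terminal colon, so every value is for whole tissue, in which fewer cells of a type and less RNA per cell cannot be told apart. Library totals ran from 18.4 to 35 megacounts (M) and were lower with RPS, at 32.8 ± 1.35 M (SD, n = 5) in the controls and 24.3 ± 3.42 M in the 10% RPS group. Mice RS10_717, RS10_725 and RS10_748 carry another RPS percent in the treatment label than in the description label used here, and the values without them or by the other label stand beside the chemokine and Irf1 calls they end and the chemokine fold changes at 10% RPS whose sign they turn. Mouse RS10_721 of the 5% RPS group held pancreas transcripts, whose 8 markers summed to 6078 CPM (counts per megacount of the scaled library size), against at most 874 CPM in the other mice.

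Chemokines are small secreted proteins that guide leukocytes along concentration gradients by binding G protein-coupled receptors. In the gut, some are made without pause by epithelium or stroma and place lymphocytes, plasma cells and macrophages in the mucosa. Others, among them the ligands of CXCR3, are switched on by interferons and microbial products and recruit T cells and monocytes.

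The upstream sequences of 3 ligands are shown because Cxcl10 was the only one of the 10 whose mRNA passed a test across the diets, Cxcl9 is the nearest of the other 9 on the chromosome, and Ccl5 was the only other ligand with a match to a searched motif. Each run is the 250 bases before the first base of the canonical transcript on the GRCm39 assembly, read 5′ to 3′ on the strand of the gene. Capitals mark matches to GAAANNGAAA, a form of the interferon-stimulated response element, or to GGGANNTTCC, a form of the NF-κB site.
Cxcl10, chr5:92496749-92496998, minus strand: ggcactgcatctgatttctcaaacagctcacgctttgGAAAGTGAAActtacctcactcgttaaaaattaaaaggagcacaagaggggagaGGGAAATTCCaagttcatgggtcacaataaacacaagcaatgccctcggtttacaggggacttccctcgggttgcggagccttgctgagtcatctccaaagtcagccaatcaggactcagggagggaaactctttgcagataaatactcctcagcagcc
Cxcl9, chr5:92475946-92476195, minus strand: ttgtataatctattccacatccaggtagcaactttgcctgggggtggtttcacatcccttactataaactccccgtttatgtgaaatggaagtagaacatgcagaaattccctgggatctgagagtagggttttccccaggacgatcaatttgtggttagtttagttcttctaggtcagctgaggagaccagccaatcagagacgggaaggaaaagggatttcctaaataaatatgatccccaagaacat
Ccl5, chr11:83421346-83421595, minus strand: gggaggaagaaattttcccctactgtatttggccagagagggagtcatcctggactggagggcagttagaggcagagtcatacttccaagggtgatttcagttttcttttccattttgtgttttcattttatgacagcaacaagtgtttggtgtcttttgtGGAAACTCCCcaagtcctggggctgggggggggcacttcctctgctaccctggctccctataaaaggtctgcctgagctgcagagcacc
In Cxcl10 the first motif starts 213 bases and the second 159 bases before the transcript, and in Ccl5 the second motif lies on the opposite strand, 89 to 80 bases before it. Both strands of the same window were searched in 15415 tested protein-coding genes, of which 3.20% held GAAANNGAAA and 1.38% held GGGANNTTCC. One further pattern, TTCCNGGAA, a form of the STAT site, was held by 1.08% of these genes and by 0 of the 10 ligands. None of the 3 patterns shares bases with another in the Cxcl10 window. These matches describe letters in a window and say nothing of binding.

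The 10 genes lie on 6 chromosomes, with several of them inside chemokine clusters. Cxcl9 (5:92469206-92475945) and Cxcl10 (5:92494497-92496748) are 18.6 kb apart on the minus strand of chromosome 5, and Cxcl11 follows 10.7 kb beyond Cxcl10. Ccl8 (11:82006007-82007625), Ccl5 (11:83416602-83425942) and Ccl6 (11:83478708-83483913) lie on chromosome 11, Ccl6 being 5.55 kb from Ccl9. Ccl25 (8:4374661-4540760) and Cx3cl1 (8:95498637-95509055) are on chromosome 8, Ccl20 (1:83094487-83096888) on chromosome 1, Ccl28 (13:120085355-120115895) on chromosome 13 and Cxcl12 (6:117144945-117158328) on chromosome 6. In the annotation used here Cxcl10 overlaps Art3, Ccl25 overlaps Elavl1 and 5 more genes, and Ccl5, Ccl6, Ccl28 and Cx3cl1 each overlap 1 other gene model. How reads in such overlaps were assigned is not given in the sources used here, so the counts of these 6 genes are uncertain to that extent.

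Levels of different genes were compared as CPM per kb of canonical transcript, averaged over the 20 mice. Ccl6, a ligand of CCR1, was the highest at 106 ± 23.0 CPM per kb (SD, n = 20). Cx3cl1, the membrane-anchored ligand of CX3CR1, measured 43.1 ± 4.55 CPM per kb, and Ccl28, the mucosal ligand of CCR10 and CCR3, measured 39.2 ± 7.35 CPM per kb. The values of these last genes overlapped across mice, whereas every mouse of the series had more Ccl6 per kb than any mouse had of the other 9 ligands. Ccl25, the ligand of CCR9 known for homing of T cells to the small bowel, followed at 19.6 ± 1.84 CPM per kb, and Cxcl12, the stromal ligand of CXCR4, at 10.9 ± 1.43 CPM per kb. The place of Ccl25 depends on the length chosen, since its canonical transcript has 902 bases and all exons of its gene model cover 12537. Ccl20, which attracts CCR6-bearing lymphocytes to lymphoid follicles, measured 6.90 ± 2.15 CPM per kb and overlapped with Cxcl12 in its range. The lowest levels were those of Ccl8 at 3.17 ± 1.05, Ccl5 at 2.97 ± 1.05, Cxcl10 at 1.46 ± 0.733 and Cxcl9 at 0.303 ± 0.215 CPM per kb. Each neighbouring pair from Cxcl12 down to Cxcl9 overlapped in range. The SD of log2 CPM between mice of one diet was 0.13 for Ccl25, 0.16 for Cx3cl1, 0.19 for Cxcl12, 0.23 for Ccl28 and 0.29 for Ccl6. It was 0.42 for Ccl20, 0.43 for Ccl8, 0.53 for Ccl5, 0.56 for Cxcl10 and 0.90 for Cxcl9, the last larger than in 98.5% of tested genes. Cxcl9 rested on 5 to 76 counts per mouse and Cxcl10 on 14 to 74, whereas Ccl6 had at least 2036 in every mouse.

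**Figure D1:**
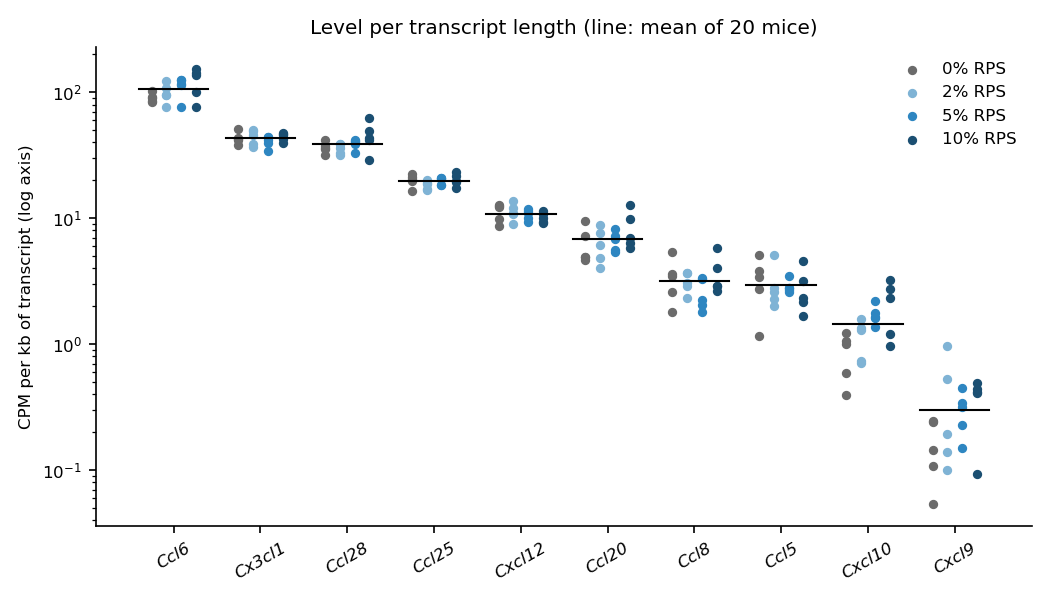
Chemokine mRNA level in CPM per kb of canonical transcript (log axis) for each of 20 mice, coloured by RPS percent, with the mean of all mice as a line. Ccl6 sits highest at a mean of 106 CPM per kb and Cxcl9 lowest at 0.303 CPM per kb, with the widest scatter.

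Whether RPS shifts any of these ligands was asked by comparing each RPS level with 0% RPS. Of the 10 chemokines, 0 were called by edgeR's quasi-likelihood test at 10% RPS, where a call needs a Benjamini-Hochberg adjusted p of at most 0.05 over 17893 genes and a fold change of at least 1.5. Over all tested genes 0.0391% were called as higher and 0% as lower at this level. DESeq2 called 1 of the 10, Cxcl10, as higher at 10% RPS, against 0.823% of the genes it tested. At an unadjusted p under 0.05, 4 of the 10 were higher at 10% RPS (Cxcl10, Ccl6, Ccl28 and Cxcl9) and 0 were lower, against 7.32% of tested genes that were higher. The median log2 fold change of the 10 was 0.21, with 8 above 0, beside -0.01 over all tested genes. At 5 and at 2% RPS edgeR called 0 of the 10, and 0% of tested genes at either level. An unadjusted p under 0.05 was reached at 5% RPS by Cxcl10 and at 2% RPS by Cxcl9, as against 4.69% and 0.693% of tested genes that were higher. The 3 contrasts share the same 5 control mice. In the trend over RPS percent, edgeR called 1 of the 10, Cxcl10, beside 1.15% of tested genes that rose and 0.950% that fell, and DESeq2 called it too, beside 3.22% of its genes that rose. An unadjusted p under 0.05 was reached in the trend by 3 of the 10 (Cxcl10, Ccl6 and Ccl28, each with a positive slope), beside 19.1% of tested genes in either direction. In the test for any difference among the 4 diets edgeR called 0 of the 10 and 0.0727% of tested genes, with an unadjusted p of 0.0034 for Cxcl10, the lowest of the 10. DESeq2 called 1 of the 10 in that test, Cxcl10 (DESeq2 adjusted p of 0.0283), beside 2.09% of the genes it tested.

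**Figure D2:**
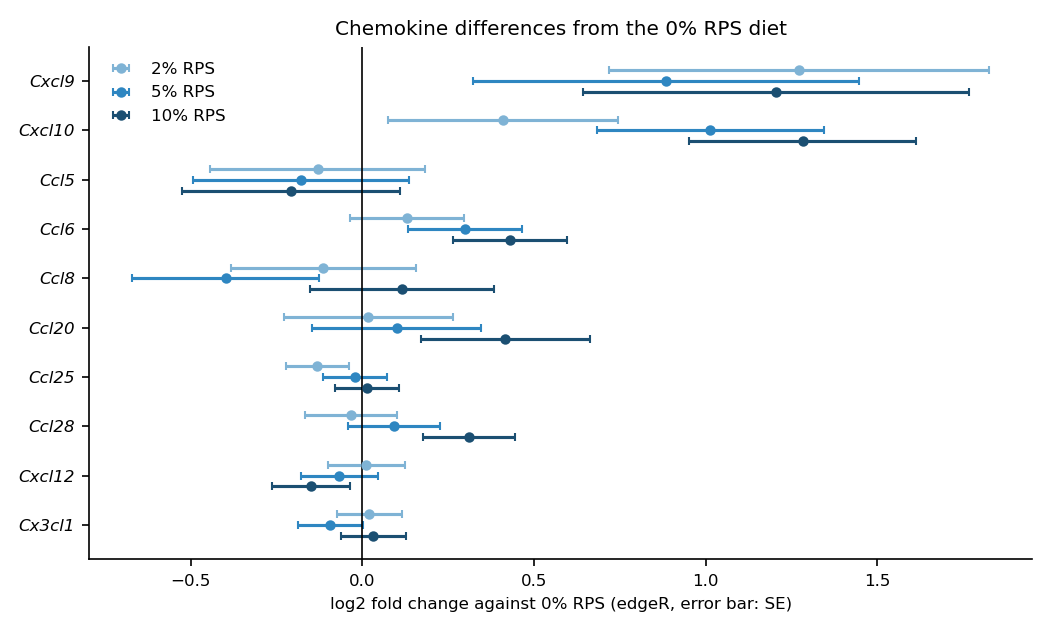
Log2 fold change of each chemokine at 2, 5 and 10% RPS against 0% RPS from the edgeR fit of 20 mice, with bars of 1 SE. Cxcl10 lies at 0.41, 1.01 and 1.28 in order of RPS, Cxcl9 near 1 at each level with wide bars, and Ccl25, Cxcl12 and Cx3cl1 within 0.15 of 0.

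Cxcl10, an interferon-inducible ligand of CXCR3 that attracts activated T cells, had the highest log2 fold change of the 10 at 10% RPS. The mice on 0% RPS measured 0.435, 0.652, 1.11, 1.16 and 1.36 CPM, and those on 2% RPS 0.787, 0.804, 1.42, 1.49 and 1.73 CPM. With 5% RPS the values were 1.52, 1.79, 1.80, 1.96 and 2.45 CPM, and with 10% RPS they were 1.06, 1.32, 2.59, 3.03 and 3.59 CPM. All 5 mice on 5% RPS lay above all 5 controls, which held for 0.464% of tested genes, while at 10% RPS 3 mice lay well above the controls and 2 among them. The means were 0.942 ± 0.383 CPM (SD, n = 5) at 0% RPS, 1.25 ± 0.429 at 2%, 1.90 ± 0.343 at 5% and 2.32 ± 1.09 at 10% RPS. The log2 fold change at 10% RPS was 1.28 ± 0.33 (SE), a 2.43-fold difference, whose adjusted p was 0.089 by edgeR and 0.0118 by DESeq2. At 5% RPS it was 1.01 ± 0.33 with an edgeR adjusted p of 0.357. The exact two-sided permutation test of 5 against 5 mice gave p = 0.0556 at 10% RPS and p = 0.0079 at 5% RPS, the latter being the smallest it can give. Adjusted over the 10 chemokines and 3 contrasts, these permutation p-values were 0.524 and 0.238, so neither passed. Over all 20 mice Cxcl10 rose by 1.26 ± 0.31 log2 units per 10 percentage points of RPS (edgeR adjusted p of 0.0335, DESeq2 0.0027). This call was kept in 15 of 20 fits that left out 1 mouse and was lost without RS10_701, RS10_708, RS10_709, RS10_725 or RS10_729, with edgeR adjusted p-values of 0.0511 to 0.0842, and it held without RS10_721, the mouse with pancreas transcripts. It was also lost with limma-voom (adjusted p of 0.058), without the 3 mice of differing labels (edgeR 0.085, slope 1.26) and by the treatment label (edgeR 0.249, slope 1.02).

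**Figure D3:**
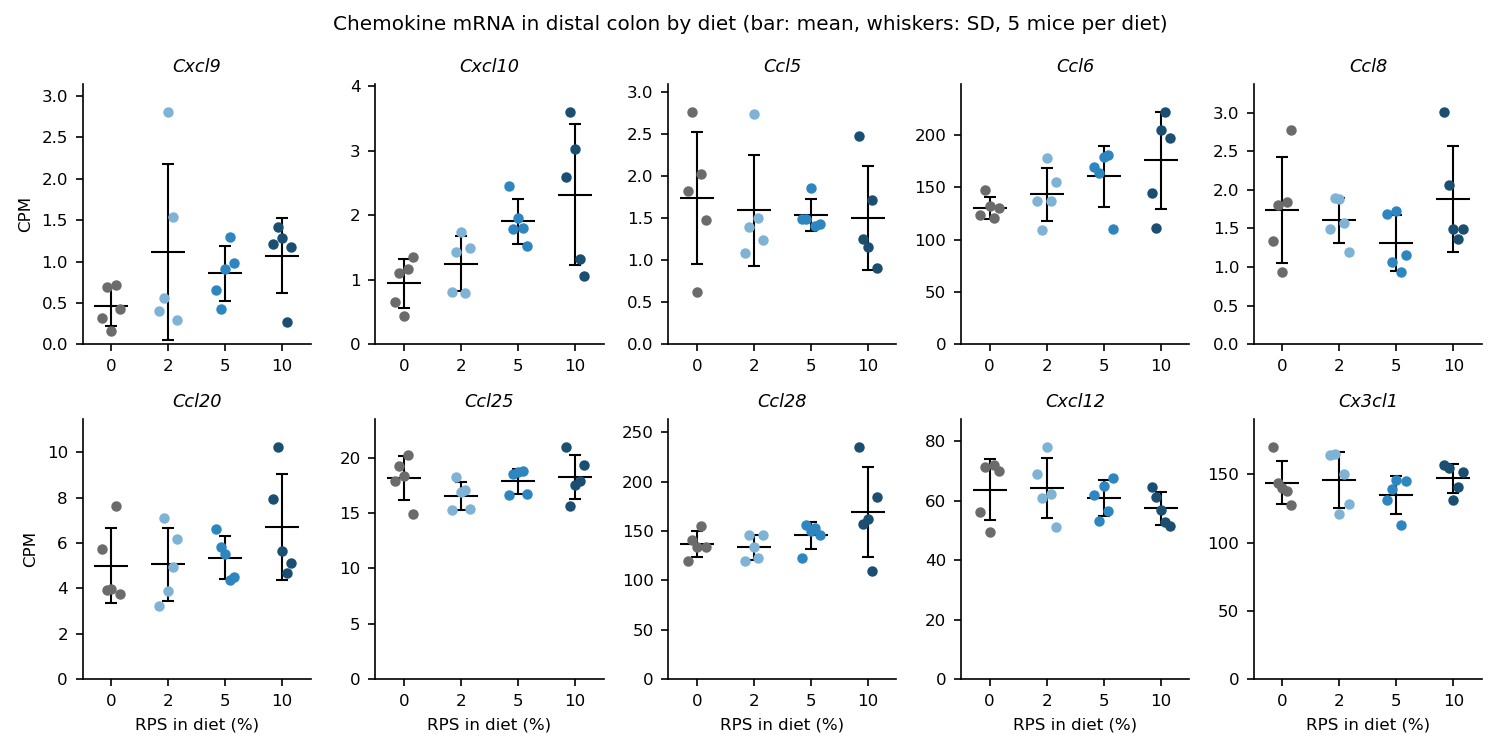
CPM of the 10 chemokines in each mouse by RPS percent, with the mean (bar) and SD (whiskers) of 5 mice per diet. Cxcl10 rises from a mean of 0.942 to 2.32 CPM with 5% RPS mice all above the controls, and every other RPS group overlaps the controls of its gene. Ccl6 and Ccl28 spread widely at 10% RPS, with 3 and 4 mice above every control and 1 mouse each below every control.

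Cxcl9, the other CXCR3 ligand among the 10 and a classical target of interferon gamma, had higher means on every RPS diet but scattered widely. It measured 0.155, 0.312, 0.422, 0.696 and 0.714 CPM at 0% RPS, and 0.292, 0.402, 0.563, 1.54 and 2.80 CPM at 2% RPS. The 5% RPS mice had 0.431, 0.661, 0.913, 0.982 and 1.29 CPM and the 10% RPS mice 0.272, 1.18, 1.22, 1.28 and 1.41 CPM. At 10% RPS 4 mice lay above every control and RS10_731 lay below 4 of them. The highest mouse had 18 times the level of the lowest, and 3 counts, taken as the limit of detection, correspond to 0.0850 to 0.163 CPM in these libraries. The log2 fold change was 1.20 ± 0.56 at 10% RPS (edgeR adjusted p of 0.318), 0.88 ± 0.56 at 5% and 1.27 ± 0.55 at 2% RPS, and the trend had an adjusted p of 0.508. None of these passed the threshold. Cxcl11, the third CXCR3 ligand, had 110 counts in all 20 libraries and was not tested.

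Of the ligands of myeloid and effector cells, Ccl6 had means that rose with each step of RPS, and Ccl5 had means that fell with each step. Ccl6 is made by macrophages and by intestinal epithelium in mice. The 0% RPS mice measured 120.1, 123, 130.2, 132 and 147 CPM, the 2% RPS mice 109, 137, 137, 155 and 178 CPM, the 5% RPS mice 110.1, 164, 169, 179 and 181 CPM, and the 10% RPS mice 111, 145, 197, 205 and 221 CPM. At 5% RPS 4 mice and at 10% RPS 3 mice exceeded every control, and each RPS group also had 1 mouse below every control. The log2 fold change at 10% RPS was 0.43 ± 0.17 (edgeR adjusted p of 0.231) and the trend was 0.42 ± 0.15 per 10 percentage points (adjusted p of 0.125). Without mouse RS10_727, the low 10% RPS mouse, the trend was 0.56 and was called, with an adjusted p of 0.0149. That was the only 1 of 20 fits leaving out 1 mouse that called Ccl6. Over these fits its slope ran from 0.34 to 0.56 and the edgeR adjusted p from 0.0149 to 0.272.

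Ccl5, the RANTES chemokine that T cells and natural killer cells release and that binds CCR1 among other receptors, showed no shift beyond its spread. It measured 1.74 ± 0.780 CPM at 0% RPS, 1.59 ± 0.657 at 2%, 1.53 ± 0.187 at 5% and 1.5 ± 0.618 at 10% RPS. Values at 0% RPS ran from 0.621 to 2.75 CPM and enclosed those of every other diet. The log2 fold change at 10% RPS was -0.21 ± 0.32, and without control mouse RS10_703 its sign turned (0.03). Ccl8, in mice a ligand of CCR8, measured 1.74 ± 0.689, 1.61 ± 0.290, 1.31 ± 0.367 and 1.88 ± 0.684 CPM in the order of RPS percent. Its log2 fold change was -0.40 ± 0.27 at 5% RPS and 0.12 ± 0.27 at 10% RPS, and the latter turned to -0.12 without mouse RS10_725, whose 3.00 CPM was the highest of the series, and to -0.04 without control mouse RS10_704. It was -0.11 without the 3 mice of differing labels and -0.20 by the treatment label.

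Among the epithelial ligands, Ccl28 was higher at 10% RPS in most mice. Ccl28 is secreted by colon epithelium and draws IgA plasma cells into the mucosa. Controls measured 119.8, 134, 134, 141 and 156 CPM and the 10% RPS mice 109, 157, 162, 185 and 235 CPM. Thus 4 of 5 mice lay above every control and RS10_731 below every one. At 2 and 5% RPS the means were 134 ± 12.5 and 146 ± 13.5 CPM, beside 137 ± 13.0 CPM at 0% RPS. The log2 fold change at 10% RPS was 0.31 ± 0.13 (edgeR adjusted p of 0.278), and the trend of 0.34 ± 0.12 had an adjusted p of 0.122. Without RS10_731 the trend was 0.45 and was called, with an adjusted p of 0.0383. That was the only 1 of 20 fits leaving out 1 mouse that called Ccl28. Over these fits its slope ran from 0.19 to 0.45 and the edgeR adjusted p from 0.0383 to 0.355. Ccl20 measured 3.77, 3.92, 3.98, 5.75 and 7.62 CPM at 0% RPS and 4.66, 5.10, 5.63, 7.95 and 10.2 CPM at 10% RPS, with 2 mice above the controls. Its log2 fold change was 0.42 ± 0.25 (edgeR adjusted p of 0.43) and that at 5% RPS 0.10 ± 0.25. Ccl25 was the most even of the 10, with 18.1 ± 2.00 CPM at 0% RPS, 16.6 ± 1.26 at 2%, 17.9 ± 1.11 at 5% and 18.3 ± 1.99 at 10% RPS. The last differed from the controls by 0.01 ± 0.09 in log2, by -0.03 without the 3 mice of differing labels and by -0.08 with the treatment label.

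The stromal and membrane-bound ligands did not pass any test. Cxcl12, which holds CXCR4-bearing cells in tissue, measured 63.8 ± 10.4 CPM in the controls and 57.5 ± 5.48 CPM in the 10% RPS mice, a log2 fold change of -0.15 ± 0.11. The 10% RPS mice, at 51.7 to 64.6 CPM, fell inside the control range of 49.3 to 72 CPM. Cx3cl1 measured 144 ± 15.8 CPM at 0% RPS, 146 ± 20.3 at 2%, 135 ± 13.7 at 5% and 147 ± 10.9 at 10% RPS, where the log2 fold change was 0.03 ± 0.10 and, by the treatment label, -0.02.

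The receptors of these ligands were examined next. Of 15 chemokine receptor genes examined in the table, 12 were tested, and edgeR called 0 at 10% RPS and 0 in the trend, as did DESeq2. At an unadjusted p under 0.05, 1 of the 12 was higher (Ccr10) and 1 lower (Cx3cr1) at 10% RPS, beside 7.32% and 7.87% of tested genes. In the trend 1 had a rising and 1 a falling slope at this p, beside 19.1% of tested genes in either direction. Ccr10, the Ccl28 receptor of IgA plasma cells, measured 1.20 ± 0.782 CPM in the controls and 2.18 ± 0.813 CPM with 10% RPS, a log2 fold change of 0.88 ± 0.35 (edgeR adjusted p of 0.233). Cxcr3, the receptor of Cxcl9 and Cxcl10, measured 0.737 ± 0.150 and 0.591 ± 0.240 CPM, with a log2 fold change of -0.34 ± 0.31. The remaining cognate receptors were not called, with log2 fold changes at 10% RPS of 0.12 for Ccr1, 0.31 for Ccr6, -0.32 for Ccr9, 0.16 for Cxcr4, -0.43 for Cx3cr1 and -0.39 for the scavenger receptor Ackr3, 1 of 5 atypical receptors tested. Ccr8, with 43 counts in all libraries, was not tested, and Ccr3 was not analysed here.

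**Figure D4:**
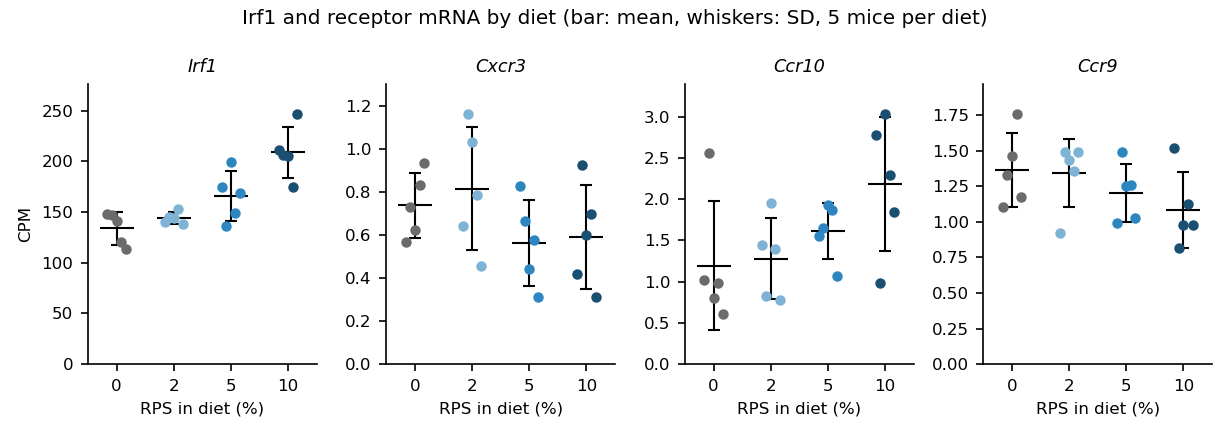
CPM of Irf1 and of 3 chemokine receptors in each mouse by RPS percent, with the mean (bar) and SD (whiskers) of 5 mice per diet. Irf1 rises from 134 to 209 CPM, Ccr10 measures 1.20 and 2.18 CPM at 0 and 10% RPS with overlapping mice, and Cxcr3 and Ccr9 show no shift beyond their spread.

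Of the other chemokine ligands, 28 were in the table and 18 were tested, and edgeR called 0 at 10% RPS and 0 in the trend. At 10% RPS 2 of the 18 were higher and 4 lower at an unadjusted p under 0.05, beside 7.32% and 7.87% of tested genes. DESeq2 called Pf4, the platelet chemokine, as lower at 10% RPS (10.3 ± 1.89 against 6.78 ± 1.09 CPM, DESeq2 adjusted p of 0.0336), beside 0.426% of its genes that were lower. Pf4 was also called as lower at 5% RPS, among the 29 genes that DESeq2 called there. In the trend DESeq2 called 2 of the 18 as rising, Ccl12 (slope of 1.24, DESeq2 adjusted p of 0.0315) and Cxcl1 (1.28, 0.0421), beside 3.22% of its genes, and 0 as falling. The 4 genes of ligand processing, which include the Cx3cl1 sheddase Adam10, gave 0 calls by edgeR. DESeq2 called Adam10 as rising in the trend (DESeq2 adjusted p of 0.0481), beside the same 3.22% of its genes. The genes of the interferon gamma axis, which induces Cxcl9 and Cxcl10, were 12 in the table and 11 tested. Of these edgeR called 1, Irf1, at 10% RPS and in the trend, beside 0.0391% of tested genes that were higher and 1.15% that rose. Irf1, the transcription factor of that axis, rose from 134 ± 16.2 CPM in the controls to 209 ± 25.4 CPM with 10% RPS, a log2 fold change of 0.64 ± 0.10 (edgeR adjusted p of 0.0093). All 5 mice on 10% RPS, at 175 to 246 CPM, lay above all controls, at 113 to 148 CPM, which held for 1.13% of tested genes in this direction. This call was lost without the 3 mice of differing labels (adjusted p of 0.0728), with only the mice of the contrast in the fit (0.055), by the treatment label (0.372), and without RS10_784, where the difference of 0.57 is below the 1.5-fold limit. The trend call of Irf1 was lost by the treatment label (edgeR adjusted p of 0.166). Cd274, which encodes PD-L1, measured 6.82 ± 1.23 and 10.7 ± 1.75 CPM at 0 and 10% RPS (log2 fold change of 0.65 ± 0.18, adjusted p of 0.103 by edgeR and 0.0269 by DESeq2, which called 0.823% of its genes as higher). Ifng itself had 10 counts in all 20 libraries and was not tested.

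Cell type markers were summed in each mouse and set beside the chemokines. The 10 T cell markers summed to 15.2 to 31.9 CPM in the controls and 18.6 to 31 CPM with 10% RPS, and edgeR called 0 of them. The 8 macrophage markers summed to 161 to 325 CPM in the controls and 149 to 209 CPM with 10% RPS, with 0 of 8 higher, a median log2 fold change of -0.38 and 0 edgeR calls. At 10% RPS 5 of these 8 were lower at an unadjusted p under 0.05, beside 7.87% of tested genes. DESeq2 called 1, Cd68, as lower (DESeq2 adjusted p of 0.0318), beside 0.426% of its genes. The macrophage markers were not lower at 10% RPS alone. All 8 were also lower at 5 and 2% RPS, with median log2 fold changes of -0.58 and -0.30 and 0 edgeR calls. At 5% RPS 2 of the 8 were among the 29 genes that DESeq2 called. Plasma cell markers summed to 261 to 901 CPM in the controls and 536 to 959 CPM with 10% RPS. There 5 of 5 were higher, with a median log2 fold change of 1.10 beside -0.01 over all tested genes. In the trend edgeR called 1, Tnfrsf17, beside 1.15% of tested genes that rose. DESeq2 called it at 10% RPS (DESeq2 adjusted p of 0.0273), beside 0.823% of its genes that were higher. The 7 epithelial markers were all higher at 10% RPS, by a median log2 fold change of 0.20. Of these 1, Krt20, was called by edgeR in the trend and by DESeq2 at 10% RPS (DESeq2 adjusted p of 0.0057), beside the same 1.15% and 0.823%. No marker of these 4 lists was at 0 in every mouse. The part of such differences in the chemokine values was not tested.

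Across the 20 mice, 8 of 150 relations between a chemokine and the summed markers of a cell type had a permutation p adjusted over the 150 of at most 0.05. Ccl5 went with T cell markers (r = 0.74, permutation p = 0.00025, adjusted p of 0.0184, rho = 0.86, permutation p = 1e-05, adjusted 0.0015, r = 0.72 without the 2 mice farthest from the median). It also went with cytotoxic and natural killer cell markers (r = 0.75, permutation p = 0.00012, adjusted 0.018, rho = 0.72, permutation p = 0.00052, adjusted 0.0222, r = 0.62 without 2 mice). Cxcl12 went with endothelial markers (r = 0.71, permutation p = 0.00049, adjusted 0.0184, rho = 0.71, permutation p = 0.00074, adjusted 0.0222, r = 0.75 without 2 mice) and against epithelial markers (r = -0.66, permutation p = 0.0016, adjusted 0.0324, rho = -0.71, permutation p = 0.00069, adjusted 0.0222, r = -0.66 without 2 mice). The remaining 4 relations, of Ccl6 against enteric neuron and glia markers (r = -0.70, and -0.59 without 2 mice), Cx3cl1 with smooth muscle (0.69 and 0.46), Ccl5 with dendritic cells (0.69 and 0.38) and Ccl25 with T cells (0.66 and 0.58), had permutation p-values of rho, adjusted over the 150, of 0.134, 0.101, 0.151 and 0.188. Cxcl10 had no such relation. All 8 kept their sign when the mean of each diet was subtracted. Their adjusted permutation p also stayed at or under 0.05, up to 0.0426 for Cxcl12 against epithelial markers. These p-values run low, since the permutations made no allowance for the subtracted means. Whether all 8 would pass with such an allowance was not tested.

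Between the chemokines themselves, 0 of 45 pairs had an adjusted permutation p of at most 0.05 over the 20 mice. The closest were Ccl5 with Cxcl12 (r = 0.65, permutation p = 0.0017, adjusted 0.0769, rho = 0.57, permutation p = 0.0101, adjusted 0.186, r = 0.52 without 2 mice) and Ccl8 with Cxcl12 (r = 0.61, permutation p = 0.0043, adjusted 0.0974, rho = 0.62, permutation p = 0.0043, adjusted 0.186, r = 0.63 without 2 mice). Cxcl9 and Cxcl10 had r = 0.54 (permutation p = 0.0156, adjusted 0.141, rho = 0.48, permutation p = 0.0354, adjusted 0.228, r = 0.42 without 2 mice). With the mean of each diet subtracted, 4 pairs passed, Cxcl12 with Ccl8 (r = 0.75, adjusted permutation p of 0.0085), with Ccl5 (0.66, 0.0189) and with Cxcl9 (0.68, 0.0189), and Cxcl10 with Ccl8 (0.63, 0.0296). Those permutations shuffled the values over all 20 mice and made no allowance for the subtracted means. Their p-values therefore run low, and the count of 4 may be too high. Which of the 4 pairs would pass with such an allowance was not tested. Ccl6 ran against Cx3cl1 (r = -0.55) and Ccl20 (r = -0.54) in the same values, without passing (adjusted permutation p of 0.0825 for both). A ligand and its own receptor were not closely tied. Of 10 such pairs, chosen after the data were seen, 0 had an adjusted permutation p of at most 0.05, and with diet means subtracted 1 did, Ccl25 with Ccr9 (r = 0.73, adjusted permutation p of 0.0020, beside r = 0.48, permutation p = 0.0318, adjusted 0.159, rho = 0.44, permutation p = 0.0542, adjusted 0.271, and r = 0.43 without 2 mice in the values as measured). The p-value with diet means subtracted runs low here for the same reason.

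**Figure D5:**
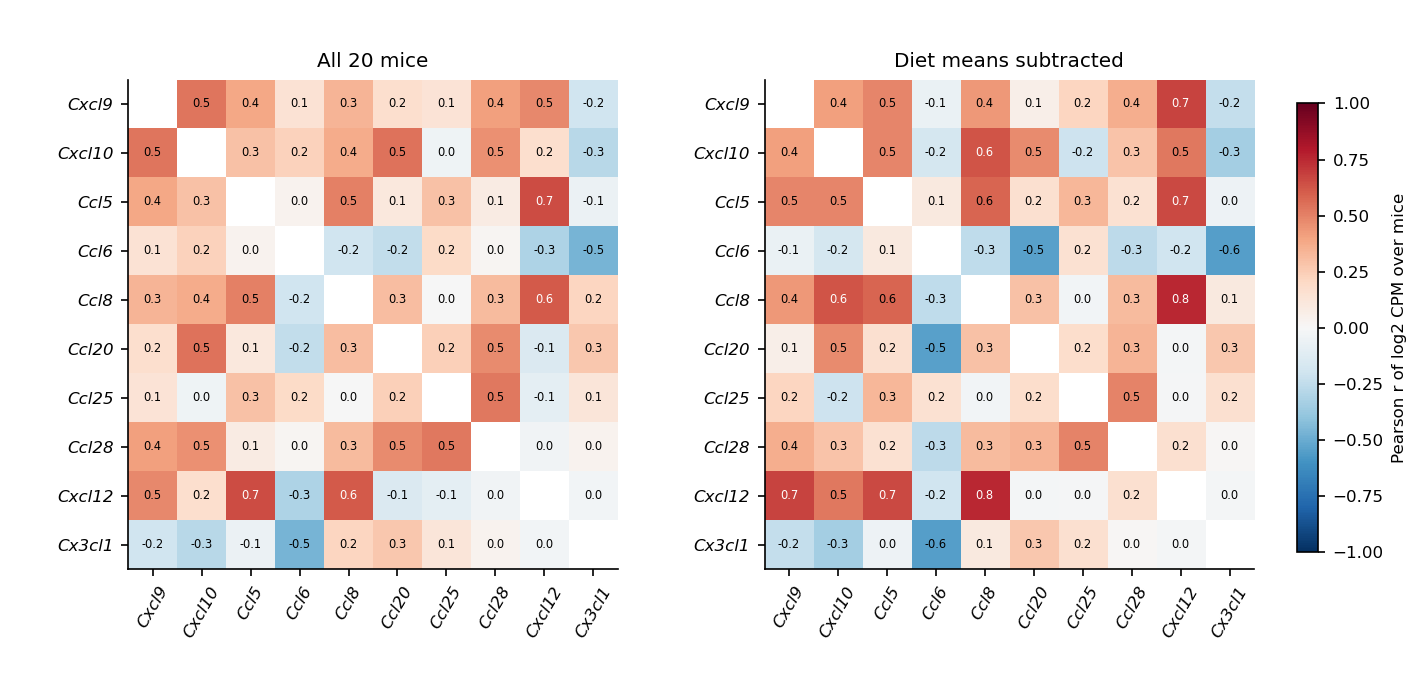
Pearson correlation over 20 mice of log2 CPM between each pair of chemokines, for the values as measured (left) and with the mean of each diet subtracted (right). Cxcl12 with Ccl5 and Ccl8 are the highest on the left, at 0.65 and 0.61, and Cxcl12 with Ccl8 on the right, at 0.75.

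For each chemokine the 3 genes with the most similar pattern were picked from 15232 genes of at least 1 CPM, by Pearson correlation of log2 CPM over the 20 mice with diet means subtracted. These are the highest of many values and are given as a description. Ccl5 was closest to Itgb2 (0.88), the common chain of leukocyte integrins, Ctsw (0.88), a protease of cytotoxic lymphocytes, and Cytip (0.88). Ccl8 was closest to the Fc receptor gene Fcgr3 (0.82), Taf1a (0.82) and Cd300c2 (0.81). Ccl6 was closest to Prrc1 (0.91), the epithelial mucin gene Muc4 (0.89) and Tspan13 (0.89). Ccl28 was closest to Pigr (0.79), the receptor that carries IgA across the epithelium, Zfp955a (0.78) and Ptpn21 (0.76). Cxcl10 was closest to Vstm4 (0.89), Rffl (0.79) and Mterf3 (0.77), and Cxcl9 to 2610021A01Rik (0.85), Ncoa7 (0.84) and Sec61a2 (0.84). Cxcl12 was closest to Wdr59 (0.87), Tbc1d8 (0.86) and Igfbp3 (0.81), and Cx3cl1 to Speg (0.84), Nxn (0.83) and Arhgef18 (0.83). Ccl20 was closest to Celf4 (0.76), Tekt3 (0.73) and Dnaaf3 (0.72), the loosest set, and Ccl25 to Etv3, Kdm2a and Asap2 (0.85, 0.85 and 0.84). In the trend over RPS percent the edgeR adjusted p of these 30 genes was 0.063 or more.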

How the data were processed

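Total RNA from the DC of 20 mice was made into stranded mRNA libraries and read as single 50-base reads. The authors removed bases below Q30 and reads with more than 2 ambiguous bases, mapped to GRCm39 in CLC Genomics Workbench 20.01 and deposited raw counts per gene, unnormalised. The annotation and strand setting are not given in the sources used here. Identifiers were matched to GENCODE vM39 (26338 of 26619), which gave symbols, positions and transcript lengths. Groups came from the description label. No pair of mice within a diet looked like one library deposited again (chi-square per degree of freedom of at least 9.74).

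Counts were analysed in R 4.3.3 with edgeR 4.0.16 (filterByExpr, minimum count 10, TMM, robust quasi-likelihood test) in one fit of 4 diets, with Benjamini-Hochberg adjustment over 17893 of 26004 genes with a count. CPM uses the scaled library size, and log2 CPM for correlations a prior count of 2. The trend is given per 10 percentage points of RPS. A call needed an adjusted p of at most 0.05 and, for a contrast, a fold of at least 1.5, as in the study's methods. DESeq2 1.42.0 and limma-voom (limma 3.58.1) were alternatives. Exact permutation tests used all 252 splits of 5 against 5 mice, and correlations 100000 permutations, whose smallest p is 1e-05. Scripts were tested on simulated data. The chemokines and all gene lists were chosen with earlier results of these data known. All 10 chemokines, their cognate receptors, the chemokine, receptor and interferon genes called in a contrast by either tool or by edgeR in the trend, and 3 similar genes per chemokine are named by rule. Tnfrsf17, Krt20, Cd68, Ifng, Adam10, Ccl9, Ccl12, Cxcl1 and Cxcl11 were picked after their values were seen. Some genes of the lists are not reported here. P-values measure the spread between mice. Alternatives covered the test, the scaling, the filter, the labels, the mice in the fit and each mouse left out.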

Additional observations from a re-analysis of the deposited data

Results flagged for a closer look

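In 4 of 40 groups of 5 mice, 1 mouse stood apart from the other 4 by Dixon's criterion, where chance gives about 1 in 20 groups. At 10% RPS mouse RS10_731 had 0.272 CPM of Cxcl9, with the next mouse at 1.18 CPM. At 2% RPS mouse RS10_715 had 2.73 CPM of Ccl5, with the next at 1.5 CPM, and it also had the highest sums of T cell (27.3 CPM) and cytotoxic cell markers (4.43 CPM) on that diet. At 5% RPS mouse RS10_719 had 1.86 CPM of Ccl5, with the next at 1.49 CPM, and again the highest T cell (24.3 CPM) and cytotoxic cell sums (3.28 CPM) of its diet. At 5% RPS mouse RS10_724 had 110.1 CPM of Ccl6, with the next at 164 CPM. The part of cell makeup in these values was not tested.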

How the results depend on the processing

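No paired analysis was possible because each mouse has its own number and none recurs across diets. The counts of calls over all genes moved more than the chemokine values. At 10% RPS edgeR called 7 genes, against 211 by DESeq2, 13 with RLE scaling, 12 with no fold threshold, 3 with only the mice of the contrast in the fit, and 0 both without the 3 mice of differing labels and by the treatment label. At 5% RPS the 0 calls became 29 by DESeq2 and 1 with only the mice of the contrast, and at 2% RPS 1 by DESeq2. The trend gave 375 calls, against 973 by DESeq2, 56 without the 3 mice and 0 by the treatment label. The test of any diet difference gave 13 calls, against 353 by DESeq2, 8 by limma-voom, by RLE scaling and by TMM without immunoglobulin genes, and 0 without the 3 mice and by the treatment label. The lists of ligands, receptors and related genes gave 1 trend call, against 6 by DESeq2 and 0 by the treatment label. Chemokine pairs went from 0 to 4 and ligand-receptor pairs from 0 to 1 with diet means subtracted, the latter chosen after seeing the data. The p-values with diet means subtracted run low, so part of this rise may come from the permutation used. With each mouse left out in turn, calls ran from 5 to 188 at 10% RPS (188 without RS10_727, 109 without RS10_703), from 0 to 1 at 5% RPS and 0 to 0 at 2% RPS. They ran from 24 (without RS10_784) to 1148 (without RS10_727) in the trend, from 0 to 42 for any diet difference, from 1 to 7 for the lists (7 without RS10_727, 4 without RS10_703) and from 0 to 2 for chemokine pairs. The cause was not tested.

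Directions turned for log2 differences near 0. Without the 3 mice these were Ccl8 (10% RPS -0.11, trend -0.19), Ccl20 (2% RPS -0.060), Ccl25 (10% RPS -0.029, 5% RPS 0.0082) and Cx3cl1 (trend -0.016). By the treatment label they were Ccl8 (10% RPS -0.20, trend -0.21), Ccl25 (10% RPS -0.078, 5% RPS 0.047, trend -0.030) and Cx3cl1 (10% RPS -0.025, trend -0.041). With 1 mouse left out, 31 values turned, the lowest and highest values over the mice being -0.14 and 0.22 for Ccl20 at 2% RPS, -0.048 and 0.072 for Ccl25 at 10% RPS, -0.091 and 0.020 at 5% RPS, -0.081 and 0.017 for Ccl28 at 2% RPS, -0.47 and 0.028 for Ccl5 at 10% RPS, -0.40 and 0.048 at 5% RPS, -0.41 and 0.097 at 2% RPS, -0.12 and 0.35 for Ccl8 at 10% RPS, -0.27 and 0.12 at 2% RPS, -0.17 and 0.29 in the trend, -0.0071 and 0.099 for Cx3cl1 at 10% RPS, -0.028 and 0.084 at 2% RPS, -0.020 and 0.060 in the trend, and -0.068 and 0.085 for Cxcl12 at 2% RPS. Depth limits Cxcl9 most, since 3 counts are worth up to 0.163 CPM.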
